A study of Homo sapiens with 24 samples.

Results

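The effect of sorting for breast cancer stem cells (BCSCs) was compared between Hs578T and HCC70, a pair of established triple-negative breast cancer (TNBC) cell lines. All 12 sorted RNA-Seq libraries, of 24 in the series, were taken: 3 BCSC and 3 non-BCSC libraries of wild-type Hs578T, and 3 of each of wild-type HCC70. BCSCs were the CD24-CD44+ and ALDH+ cells collected by FACS, and non-BCSCs lacked both phenotypes; no agent was given to any of them. The labels give biological triplicates and do not say whether a BCSC and a non-BCSC library came from the same sort. Here the Hs578T libraries were numbered as batch 1 and the HCC70 libraries as batch 2. A difference between the lines therefore cannot be told apart from a difference between these batches, and each line is a single tumor's descendant. Values are TPM, a level per transcript length scaled to the total of each library. The tables list 19283 genes for Hs578T and 18248 for HCC70, and 17148 are in both. The 11668 of these with a mean of at least 1 TPM in each line were tested.

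BCSCs are the fraction of a tumor that can found new tumors. CD24-CD44+ cells are usually described as quiescent and mesenchymal-like and ALDH+ cells as cycling and epithelial-like. ALDH stands for the aldehyde dehydrogenases, some of which turn retinaldehyde into retinoic acid. A gene can answer the sort alike in both lines, in a single line, or in opposite directions, and the last of these is lost when only shared changes are kept. Expression programs that often vary within a culture include the mitotic genes of the late cell cycle, the genes that hypoxia-inducible factor (HIF) turns on when oxygen is low, the interferon-stimulated antiviral genes, and the genes of the extracellular matrix.

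The labelled lines differed in their marker levels. VIM, an intermediate filament of mesenchymal cells, lay between 3661 and 4016 TPM in Hs578T and between 4.56 and 6.65 in HCC70. KRT5, a basal keratin, lay between 4017 and 4479 TPM in HCC70 and is not listed for Hs578T, and EPCAM, an epithelial adhesion protein, lay between 182 and 198 TPM in HCC70 and below 0.45 in Hs578T. Of the sorting markers, CD44 stood at 558 ± 10.1 TPM (SD, n = 3) in non-BCSCs and 579 ± 12.8 in BCSCs of Hs578T, against 103 ± 3.83 and 107 ± 11.3 in HCC70, with overlapping fractions in both lines. CD24 fell in HCC70 BCSCs, from 912, 828 and 831 TPM to 685, 667 and 725 TPM (log2 fold change -0.31 ± 0.07 SE, adjusted p = 0.018), while the Hs578T fractions overlapped at 86.2 ± 7.16 and 83.1 ± 4.32 TPM; the difference of the effects did not pass (0.26, adjusted p = 0.12). ALDH1A1 is not listed for Hs578T. In HCC70 it lay between 327 and 337 TPM in the non-BCSC libraries and between 357 and 370 TPM in the BCSC libraries, and it was not tested. Of 16 markers of blood, endothelial, liver, islet and muscle cells, 11 are listed for Hs578T and 15 for HCC70, and all were under 1 TPM, PTPRC included, except CD68 in both lines, CD14 in HCC70 at 84.0 to 119 TPM, and PECAM1 in Hs578T at 2.88 to 3.62 TPM. The libraries of Hs578T held from 28403151 to 33973761 recovered reads, and those of HCC70 from 24984030 to 33986022.

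Some 684 genes passed in Hs578T (adjusted p under 0.05, 5.86% of those tested), made up of 298 rises (2.55%) and 386 falls (3.31%) in BCSCs relative to non-BCSCs. In HCC70, 1142 passed (9.79%), and these comprised 910 rises (7.80%) and 232 falls (1.99%). The effect itself differed between the lines for 830 genes (7.11%), and for 725 of these the log2 fold changes had opposite signs. Choosing genes by the difference favors opposite signs. Of the 830, the Hs578T effect lay below the HCC70 effect for 656 (5.62%) and above it for 174 (1.49%). In all, 128 genes changed the same way in both lines, 116 of them upward (0.994%) and 12 downward (0.103%). The 12 became 1 with each line fitted alone, 21 with median-of-ratios scaling, 24 rescaled without RMRP and RPPH1, 22 with edgeR and 29 with DESeq2. A further 53 passed in both lines with opposite signs (0.454%), and each of them also passed for the difference. The tests share an error, so calls of opposite sign all but fix that result and it adds no support. The difference passed together with Hs578T alone for 261 genes, with HCC70 alone for 331, and without a call in either line for 163. Across the 11668 genes, the effects in the 2 lines had a Pearson's r of -0.0879 and a Spearman's rho of -0.0815, given as a description, since genes are not independent replicates and each line carries its own scaling.

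The directions in HCC70 depended on the scaling between libraries. With a median-of-ratios scaling, 636 genes were higher and 389 lower in HCC70 BCSCs, and the 727 genes that differed between the lines split into 405 below and 322 above. The RNAs RMRP and RPPH1 took 11.6% to 13.1% of all TPM in HCC70 non-BCSCs, 9.38% to 10.4% in HCC70 BCSCs and 11.1% to 14.0% in Hs578T. Without these RNAs, 579 genes were higher and 401 lower in HCC70. With each line given its own error, 322 genes passed in HCC70 and 665 in Hs578T. The statements on HCC70 therefore rest partly on an error shared with Hs578T.

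**Figure D1:**
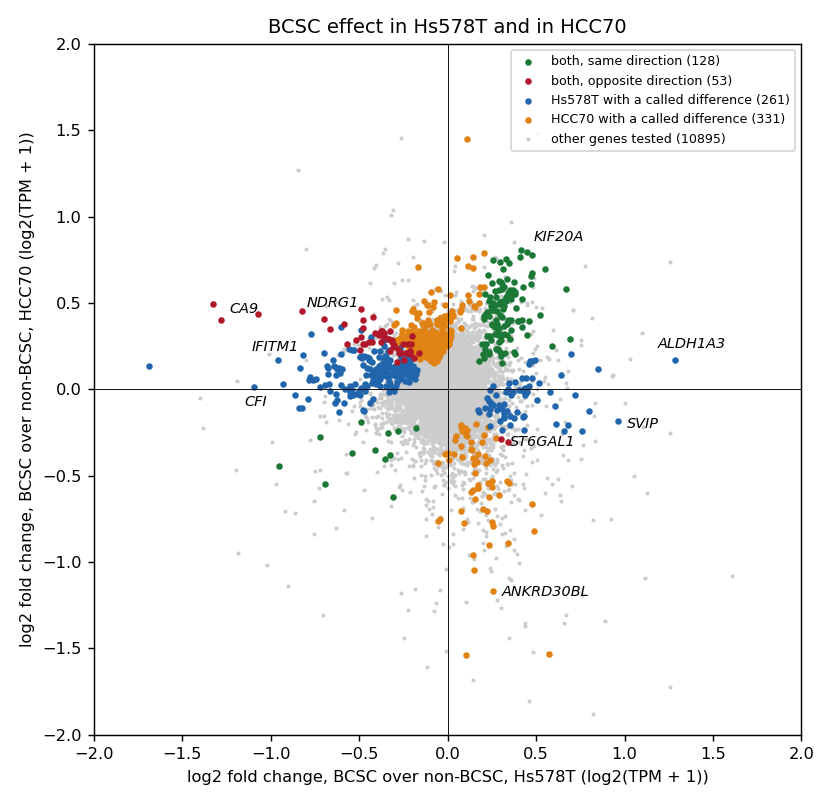
The log2 fold change of BCSCs over non-BCSCs on the log2(TPM + 1) scale is plotted for Hs578T (x axis) and HCC70 (y axis), one point per gene tested and one color per class, with the number of genes in parentheses. The 128 genes changed alike lie mainly in the upper right, the 53 with opposite calls mainly in the upper left, and 2 genes fall outside the axes.

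The mitotic genes were the largest group to rise in both lines. Of the 70 genes of the mitosis list, all of which were tested, 51 rose in Hs578T and 64 in HCC70, 50 rose in both and 0 fell in either, by limma, edgeR, DESeq2 or an unadjusted p under 0.05. They made up 50 of the 116 genes that rose in both lines. The median log2 fold change was 0.29 in Hs578T and 0.51 in HCC70, against -0.01 and 0.02 over all genes tested. KIF20A, a kinesin needed for cytokinesis, measured 218, 218 and 214 TPM in the non-BCSC libraries of Hs578T and 295, 271 and 323 in its BCSC libraries. In HCC70 it measured 68.7, 74.0 and 71.4 TPM and then 123, 123 and 129. The fractions did not overlap in either line, and the rise was 0.45 ± 0.06 (SE) in Hs578T (adjusted p = 0.00083) and 0.80 ± 0.06 in HCC70 (adjusted p = 1.9e-05).

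The rise was larger in HCC70 for 61 of the 70 mitotic genes, and the difference passed for 15, all in that direction (5.62% of all genes). Among all 11668 genes the HCC70 effect lay above the Hs578T effect for 6772. The median difference over all genes was -0.04, and 0.01 with median-of-ratios scaling. PLK1, the kinase that drives spindle assembly and mitotic exit and which was chosen after its values were seen, went from 85.3 ± 1.58 to 114 ± 3.05 TPM in Hs578T and from 91.7 ± 4.95 to 161 ± 2.63 TPM in HCC70, with a difference of -0.40 (95% interval -0.54 to -0.25, adjusted p = 0.0062). The non-BCSC levels of PLK1 were close in the 2 lines, and HCC70 BCSCs stood above all other libraries. KIF2C, a microtubule-depolymerizing kinesin, rose by 0.26 in Hs578T and 0.75 in HCC70 (difference adjusted p = 0.008). TROAP, a spindle-associated protein, passed in HCC70 only, at 0.79 against 0.21 (difference adjusted p = 0.0075), and MKI67, the proliferation antigen Ki-67, likewise at 0.59 against 0.18 (adjusted p = 0.029). For KIF20A the difference was -0.35 (adjusted p = 0.029) and for CCNB1, the mitotic cyclin, -0.31 (adjusted p = 0.043). The differences of MKI67, KIF20A and CCNB1 lost the call under some alternatives, with adjusted p up to 0.078, 0.077 and 0.11. NEK2, a centrosome kinase, rose by 0.47 and 0.61, and HMMR, a spindle and hyaluronan-binding protein, by 0.42 and 0.52. Their differences of -0.14 and -0.10 did not pass, with 95% intervals of -0.30 to 0.02 and -0.29 to 0.08. Without BCSC replicate 1 of Hs578T, 27 mitotic genes rose in both lines, and the 15 differences became 6 without non-BCSC replicate 2 of Hs578T.

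The S-phase genes were compared as 2 lists. Of 50 DNA replication genes, 0 passed in Hs578T by limma, where 6 had an unadjusted p under 0.05 and edgeR called 1 and DESeq2 3. In HCC70, 2 rose and 1 fell by limma, against 7.80% and 1.99% of all genes called by that test. There, 10 were higher and 9 lower at an unadjusted p under 0.05, 2 and 5 by edgeR, and 5 and 5 by DESeq2. For the difference 0 passed by limma, with 12 at an unadjusted p under 0.05, 1 by edgeR and 5 by DESeq2. Of 43 replication-dependent histone genes listed, 31 were tested: 6 rose in HCC70, and the difference passed for 7, against 7.80% and 7.11% of all genes. The libraries were selected for poly-A RNA, so histone RNA without a poly-A tail would be undercounted and these values may not follow histone expression. In Hs578T 0 passed by limma, with 3 at an unadjusted p under 0.05, 0 by edgeR and 1 by DESeq2. Of the other genes the study took forward, GDF15, a stress-induced cytokine, was between 0.700 and 1.89 TPM in all 12 libraries and did not pass in either line. HIST1H2BA, a testis histone, and MVB12B, an endosomal sorting subunit, were under the minimum in HCC70. HIST1H2BA measured 2.16 to 2.97 TPM in Hs578T non-BCSCs and 4.40 to 5.21 in its BCSCs, and 0.204 to 0.682 and 0.832 to 1.55 in HCC70, and the latter values rest on 1 to 9 reads a library.

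The 12 genes that fell in both lines included 5 with at least 10 TPM in a group of each line. SEMA3C, a secreted semaphorin, fell from 104 ± 4.16 to 83.7 ± 1.76 TPM in Hs578T and from 52.1 ± 1.68 to 33.5 ± 2.03 TPM in HCC70, and fell more in HCC70 (difference 0.31, adjusted p = 0.03). LGALS3, a galactoside-binding lectin, fell more in Hs578T, from 28.1 ± 1.51 to 19.7 ± 0.275 TPM, than in HCC70, from 277 ± 17.2 to 243 ± 7.43 (difference -0.30, adjusted p = 0.041). S100A10, a partner of annexin A2, and UNG, a uracil glycosylase of DNA repair, fell by 0.28 and 0.18 in Hs578T and by 0.24 and 0.22 in HCC70. These calls were lost under some alternatives, with adjusted p up to 0.11 and 0.13 for S100A10 and 0.19 and 0.067 for UNG, as was that of LGALS3 in HCC70, at up to 0.16. The differences of SEMA3C and LGALS3 lost the call too, with adjusted p up to 0.08 and 0.11. MIR612 also fell in both lines, but all of its exon bases lie within NEAT1 on the same strand. Its adjusted p reached 0.083 in Hs578T and 0.14 in HCC70 over the alternatives. Of the 6 genes at the head of those that rose, SNORD74, a small nucleolar RNA, went from 45.2 ± 9.19 to 65.7 ± 3.01 TPM and from 226 ± 24.6 to 366 ± 36.3 TPM, FAM83D, a spindle protein, rose by 0.47 and 0.66, and MIR3153 by 0.52 and 0.43 with as few as 11 reads in a library. Over the alternatives, adjusted p for MIR3153 reached 0.43 in Hs578T and 0.14 in HCC70. For SNORD74 it reached 0.081 in Hs578T.

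Opposite calls were nearly all of a single kind. Of the 53 genes, 51 fell in Hs578T BCSCs and rose in HCC70 BCSCs (0.437%), and 2 did the reverse. The 2 became 16 with a median-of-ratios scaling, in which 42 did the former. ST6GAL1, a sialyltransferase, was one of the 2. It measured 9.72, 9.20 and 9.16 TPM in Hs578T non-BCSCs, 12.4, 11.3 and 11.7 in Hs578T BCSCs, 30.1, 33.6 and 31.2 in HCC70 non-BCSCs and 25.0, 24.5 and 27.8 in HCC70 BCSCs (difference 0.59 ± 0.09, adjusted p = 0.0033). Its call in each line was lost under some alternatives, with adjusted p up to 0.073 in Hs578T and 0.073 in HCC70. The counts of this class were sensitive to single libraries. Without BCSC replicate 1 of HCC70 they came to 12 in all, and to 10 where each line was fitted alone.

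Several hypoxia and glycolysis genes were among the opposite calls. Of 36 listed genes 32 were tested: 13 fell in Hs578T BCSCs, 6 rose in HCC70 BCSCs, and the difference passed for 15, all with a lower effect in Hs578T. Over all genes tested these shares were 3.31%, 7.80% and 5.62%. The median log2 fold change was -0.27 in Hs578T and 0.12 in HCC70. The Hs578T effect lay below the HCC70 effect for 30 of the 32, and for 6772 of all 11668 genes tested. The 5 members that passed in both lines with opposite signs were CA9, NDRG1, ANKRD37, DDIT4 and SLC2A1. CA9, the carbonic anhydrase that acidifies the space around hypoxic cells, measured 15.6, 17.1 and 16.5 TPM in Hs578T non-BCSCs and 6.21, 6.00 and 6.18 in Hs578T BCSCs. In HCC70 it measured 19.5, 25.9 and 22.3 TPM and then 29.3, 30.9 and 29.6. All Hs578T BCSC libraries were thus lower, and all HCC70 BCSC libraries higher, than their non-BCSC libraries. The log2 fold changes were -1.28 ± 0.08 (adjusted p = 8.2e-06) and 0.40 ± 0.08 (adjusted p = 0.014), a difference of -1.69 (95% interval -1.94 to -1.43, adjusted p = 2.1e-05), and over all alternatives that difference ran from -1.82 to -1.59. The HCC70 rise lost its call under some, with adjusted p up to 0.067.

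NDRG1, a stress-responsive regulator of growth and differentiation, measured 83.0, 85.0 and 90.5 TPM in Hs578T non-BCSCs, 50.1, 51.6 and 56.3 in Hs578T BCSCs, 27.9, 28.2 and 28.5 in HCC70 non-BCSCs and 38.4, 39.0 and 36.1 in HCC70 BCSCs. The fall of 0.70 in one line and the rise of 0.41 in the other differed by -1.11 (adjusted p = 2.1e-05). DDIT4, an inhibitor of mTORC1 signaling, had almost the same level in the non-BCSCs of both lines, 71.2 ± 1.98 and 70.1 ± 5.34 TPM, and stood at 52.9 ± 3.22 TPM in Hs578T BCSCs and 94.2 ± 7.78 in HCC70 BCSCs (difference -0.84, adjusted p = 0.0011). SLC2A1, the glucose transporter GLUT1, chosen after its values were seen, went from 53.8 ± 0.293 to 38.0 ± 0.987 TPM and from 67.7 ± 2.65 to 83.8 ± 1.97 TPM (difference -0.80, adjusted p = 3.5e-05). ANKRD37, a small ankyrin-repeat protein, fell by 0.49 and rose by 0.46 (difference adjusted p = 0.00029), although 40.3% of its exon bases overlap UFSP2 on the other strand, as 35.7% of those of CA9 overlap ARHGEF39.

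ENO2, a neuronal enolase of glycolysis, was the remaining member that rose in HCC70, by 0.31, and had a called difference of -0.55; it was picked out after its values were seen. For PDK1 and LDHA the HCC70 effect did not pass. PDK1, the kinase that inhibits pyruvate dehydrogenase, also chosen after its values were seen, fell from 36.1 ± 1.79 to 22.3 ± 0.978 TPM in Hs578T and stood at 14.5 ± 0.861 and 14.9 ± 1.15 TPM in HCC70 (difference -0.70, adjusted p = 0.0021). LDHA, which turns pyruvate into lactate, fell from 2290.2 ± 62.7 to 1712 ± 70.2 TPM in Hs578T and stood at 394 ± 24.8 and 379 ± 23.8 TPM in HCC70 (difference -0.36, adjusted p = 0.033). The LDHA difference lost its call under some alternatives, with adjusted p up to 0.081. The number that fell in Hs578T ran from 12 to 15 when single libraries were left out, and the number that differed from 11 to 17. These are bulk libraries, in which fewer cells with a transcript and less of it per cell cannot be told apart.

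**Figure D2:**
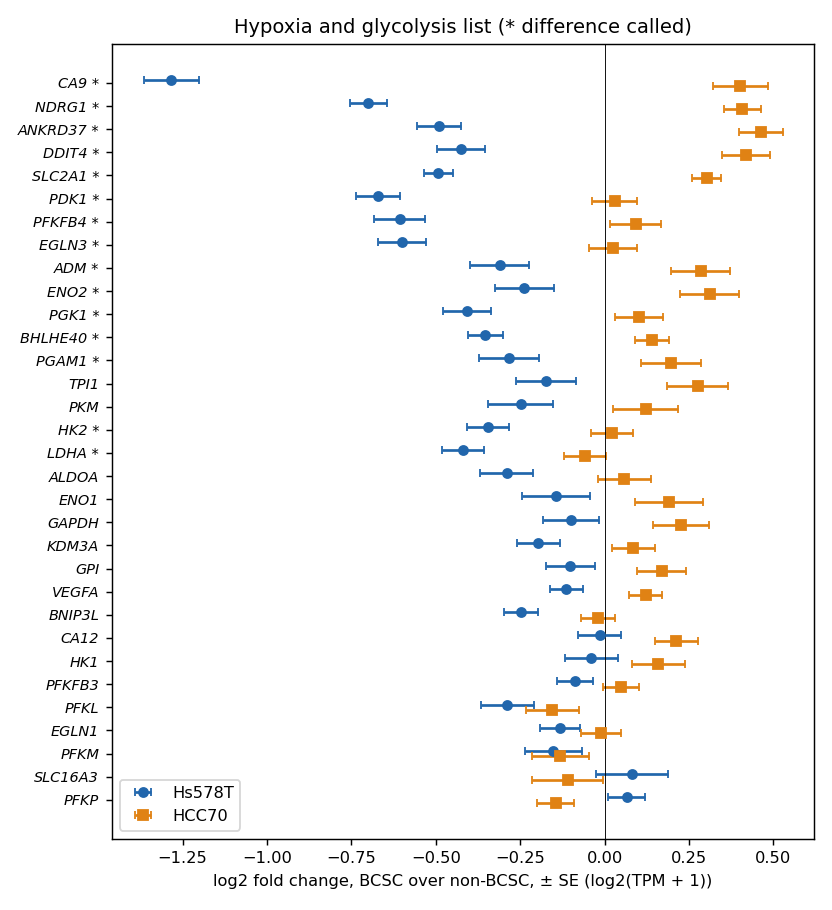
The log2 fold change of BCSCs over non-BCSCs, with its SE, is drawn for each of the 32 hypoxia and glycolysis genes tested, in Hs578T (circles) and HCC70 (squares), and asterisks mark the 15 for which the difference between the lines passed. From CA9 at the top to TPI1, the Hs578T values lie left of 0 and the HCC70 values right of it.

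The RefSeq promoters of these genes were read on GRCh38.p14, and stretches of 250 bases before the start are shown for genes from the class that rose in both lines (PLK1 and KIF20A), from that with opposite calls (CA9 and DDIT4) and from that which fell in Hs578T alone (IFITM1, described further on). The lines give PLK1 at chr16:23678639-23678888, KIF20A at chr5:138178862-138179111, CA9 at chr9:35673678-35673927, DDIT4 at chr10:72273674-72273923 and IFITM1 at chr11:313790-314039, all on the plus strand. Capitals mark CCAAT and TTTGAA in PLK1 and KIF20A, the core ACGTG in CA9 and DDIT4, and the interferon-stimulated response element (ISRE) in IFITM1, read on either strand. On the opposite strand CCAAT appears as ATTGG and ACGTG as CACGT. The ISRE was searched as a pair of TTTC runs with any 2 bases between them.
PLK1: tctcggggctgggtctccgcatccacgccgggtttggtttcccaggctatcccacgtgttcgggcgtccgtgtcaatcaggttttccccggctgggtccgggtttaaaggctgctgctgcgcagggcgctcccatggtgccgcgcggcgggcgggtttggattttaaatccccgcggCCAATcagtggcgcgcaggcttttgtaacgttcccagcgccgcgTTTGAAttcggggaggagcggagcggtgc
KIF20A: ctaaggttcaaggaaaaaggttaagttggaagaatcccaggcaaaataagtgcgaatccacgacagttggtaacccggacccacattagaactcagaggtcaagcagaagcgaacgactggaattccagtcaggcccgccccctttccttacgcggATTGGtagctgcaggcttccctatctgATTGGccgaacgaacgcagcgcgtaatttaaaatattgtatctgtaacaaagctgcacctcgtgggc
CA9: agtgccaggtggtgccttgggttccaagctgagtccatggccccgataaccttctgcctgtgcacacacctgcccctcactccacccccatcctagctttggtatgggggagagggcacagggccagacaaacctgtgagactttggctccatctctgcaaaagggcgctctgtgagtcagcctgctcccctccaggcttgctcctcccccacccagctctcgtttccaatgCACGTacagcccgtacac
DDIT4: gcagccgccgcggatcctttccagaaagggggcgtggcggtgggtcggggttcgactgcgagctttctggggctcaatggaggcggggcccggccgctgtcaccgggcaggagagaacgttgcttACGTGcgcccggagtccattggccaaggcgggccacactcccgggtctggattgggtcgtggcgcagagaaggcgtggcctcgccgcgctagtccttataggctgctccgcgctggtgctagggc
IFITM1: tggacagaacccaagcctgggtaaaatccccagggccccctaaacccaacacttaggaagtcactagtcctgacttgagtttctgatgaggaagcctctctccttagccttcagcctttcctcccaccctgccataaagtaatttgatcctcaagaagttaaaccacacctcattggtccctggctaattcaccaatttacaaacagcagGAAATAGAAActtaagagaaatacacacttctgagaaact

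CCAAT is the box bound by NF-Y, and TTTGAA the core of the cell cycle homology region of late cell cycle genes. In windows from 250 bases before to 50 after the start, CCAAT was held by 76.9% of the 52 promoters of mitotic genes that rose in both lines and by 35.7% of the 13006 promoters of all genes tested. TTTGAA was held by 67.3% against 10.6%. Over the 72 promoters of the whole mitosis list, whether or not the gene passed, the shares were 75.0% and 62.5%. Among the 116 promoters of all genes that rose in both lines CCAAT was held by 60.3%, which is 70 promoters, and TTTGAA by 58 promoters. In PLK1 the boxes lay from -73 to -69 and from -29 to -24 relative to the start. In KIF20A, CCAAT lay in 2 places on the opposite strand, from -94 to -90 and from -67 to -63, and TTTGAA was not in the stretch shown. ACGTG, the core of the hypoxia response element bound by HIF, and the ISRE were searched after the values had been seen. ACGTG, which also lies within every E-box CACGTG, was held by 58.8% of the 17 promoters of hypoxia genes called for the difference, by 39.3% of the 56 promoters of the whole list, and by 26.1% of all. In the 61 promoters of all genes with a fall in Hs578T and a rise in HCC70 its share was 23.0%. It lay from -18 to -14 in CA9 and from -125 to -121 in DDIT4. The AP-1 site TGACTCA was held by 8.20% of promoters of genes with a fall in Hs578T and a rise in HCC70 against 3.29%, and CACGTG by 4.92% against 9.60%. These are matches of letters only, with no test.

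Outside the list, RGS2 and APOL1 were also among the genes at the head of the opposite class. RGS2, a brake on G protein signaling, fell by 0.48 and rose by 0.40, and APOL1, an apolipoprotein that interferon induces, fell by 0.66 and rose by 0.35. Their HCC70 rises lost the call under some alternatives, with adjusted p up to 0.053 for RGS2 and 0.072 for APOL1. The heat shock and immediate early genes held more of this class. Of 26 tested, 2 rose and 4 fell in Hs578T, 11 rose in HCC70, 4 passed with opposite signs and 8 passed for the difference. Among all genes, 2.55% rose and 3.31% fell in Hs578T, 7.80% rose in HCC70, 0.454% passed with opposite signs and 7.11% for the difference. FOSB, a subunit of AP-1, went from 2.44 ± 0.198 to 1.29 ± 0.0878 TPM in Hs578T and from 66.6 ± 6.18 to 86.7 ± 8.06 TPM in HCC70 (difference -0.96, adjusted p = 0.0011). The stress chaperones HSPA1A and HSPA1B, near-identical copies whose reads can be shared, fell by 0.34 and 0.50 and rose by 0.29 and 0.23. The HCC70 rises of FOSB and HSPA1B lost the call under some alternatives, with adjusted p up to 0.079 and 0.15. ATF3, a stress-induced repressor, passed in HCC70 only (0.39, against -0.11 in Hs578T, difference adjusted p = 0.04). Both calls of ATF3 were lost under some alternatives, with adjusted p up to 0.092 in HCC70 and 0.1 for the difference. The 11 that rose in HCC70 became 5 without its BCSC replicate 1 and 4 with each line fitted alone.

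**Figure D3:**
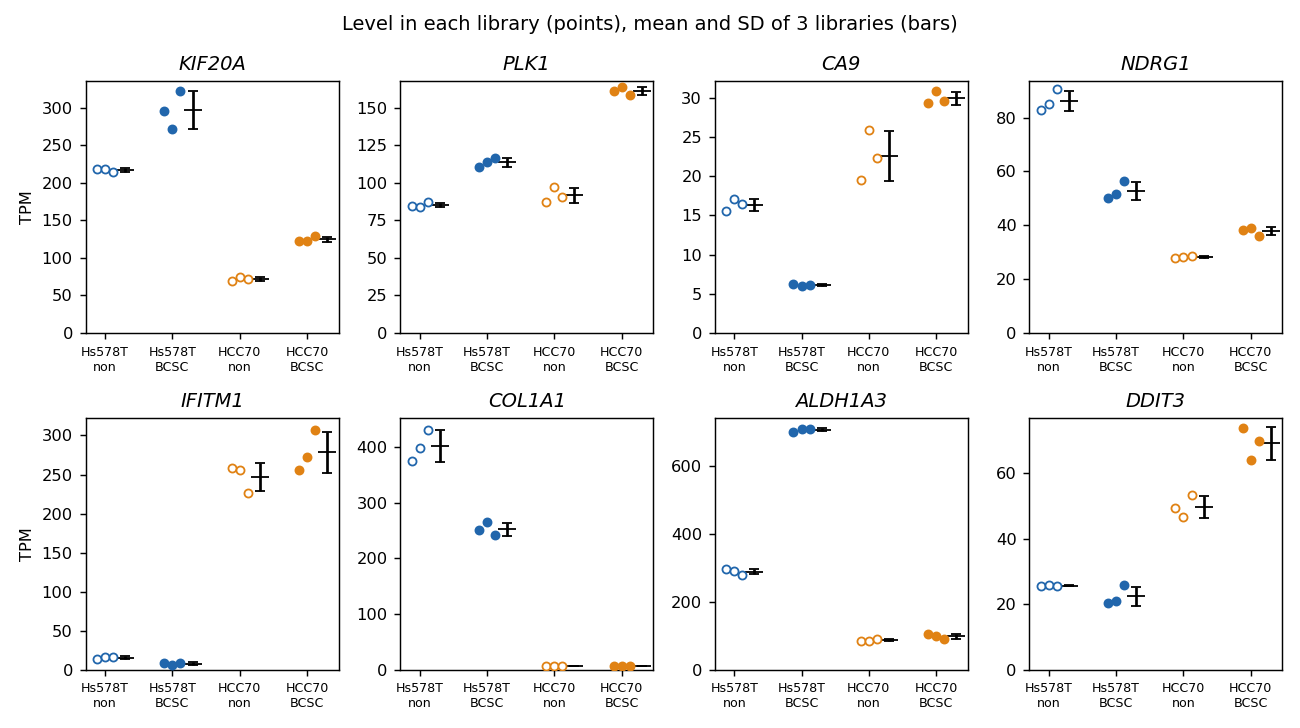
TPM in each library is shown for 8 genes, with non-BCSC libraries as open and BCSC libraries as filled points and the mean ± SD of 3 libraries beside them. KIF20A and PLK1 rise in both lines, CA9 and NDRG1 fall in Hs578T and rise in HCC70, IFITM1 and COL1A1 fall and ALDH1A3 rises in Hs578T, and DDIT3 rises in HCC70.

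The interferon-stimulated genes differed in a similar direction but passed mostly in Hs578T. Of 45 listed, 39 were tested: 18 fell in Hs578T, 4 rose and 1 fell in HCC70, and the difference passed for 19, all with a lower effect in Hs578T. The shares of all genes were 3.31% for a fall in Hs578T, 7.80% and 1.99% in HCC70, and 5.62% for such a difference. The median log2 fold change was -0.22 in Hs578T and 0.05 in HCC70. IFITM1, a membrane protein that blocks virus entry, measured 13.2, 16.7 and 16.4 TPM in Hs578T non-BCSCs and 9.01, 5.50 and 8.14 in Hs578T BCSCs, and 258, 256 and 226 TPM and then 256, 272 and 308 in HCC70. The Hs578T fractions were apart and the HCC70 fractions overlapped (difference -1.13 ± 0.20, adjusted p = 0.0085). Its paralog IFITM2 fell by 0.82 in Hs578T and stood 0.20 higher in HCC70, short of the threshold, and 21.1% of the exon bases of IFITM1 lie within another annotated gene on the same strand. XAF1, an apoptosis factor, went from 5.73 ± 0.739 to 2.51 ± 0.170 TPM in Hs578T and stood at 24.4 ± 3.73 and 24.8 ± 2.52 TPM in HCC70, with 38.3% of its exon bases shared with PRAL on the other strand. BST2, the virus tether tetherin, went from 19.3 ± 1.78 to 11.7 ± 0.373 TPM and stood at 424 ± 75.7 and 447 ± 31.9 TPM. In these 4 genes the line with the higher level had no called change. The ISRE was held by 59.1% of the 22 promoters of interferon-stimulated genes called for the difference, 61.9% of the whole list and 2.86% of all, and in IFITM1 it lay from -40 to -31. The 18 genes became 12 without non-BCSC replicate 2 of Hs578T, and 19 differences became 13.

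Some matrix and mesenchymal genes fell in Hs578T. Of 62 matrix genes, 28 were tested, since the others are below the minimum in a line: 2 rose and 13 fell in Hs578T, 4 rose and 3 fell in HCC70, and the difference passed for 2 upward and 12 downward. Across all genes, 2.55% rose and 3.31% fell in Hs578T, 7.80% and 1.99% in HCC70, and 1.49% and 5.62% differed upward and downward. COL1A1, the main chain of type I collagen, measured 374, 399 and 431 TPM in Hs578T non-BCSCs and from 242 to 265 TPM in its BCSCs, and was between 6.26 and 7.01 TPM in all HCC70 libraries (difference -0.66, adjusted p = 0.0018). COL5A2, a chain of type V collagen, fell by 0.64 (difference -0.78), LAMA4, a laminin chain, by 0.69 at about 2 TPM (difference -0.72), and P4HA2, a collagen prolyl hydroxylase, fell by 0.36 and rose by 0.32 (difference -0.68), with adjusted p up to 0.11 and 0.12 in the lines over the alternatives. COL3A1 and POSTN, picked out after their values were seen, could not be compared. COL3A1 lay between 757 and 784 TPM in Hs578T non-BCSCs and between 235 and 271 in its BCSCs, and at no more than 0.0137 TPM in HCC70. POSTN lay between 89.5 and 95.2 and between 33.8 and 34.1 TPM in Hs578T and is not listed for HCC70. Of 26 mesenchymal genes listed, 11 were tested: 5 fell in Hs578T and 1 rose and 2 fell in HCC70, against 3.31%, 7.80% and 1.99% of all genes. VIM measured 3661 to 3737 TPM in Hs578T non-BCSCs and 3817 to 4016 in its BCSCs, with a log2 fold change of 0.07 that did not pass. SNAI2, a repressor of epithelial genes, went from 89.9 ± 2.15 to 59.0 ± 1.38 TPM in Hs578T and stood at 28.8 ± 1.12 and 31.4 ± 1.86 TPM in HCC70 (difference -0.72, adjusted p = 0.00035), and S100A4, a calcium-binding protein of motile cells, fell by 0.53 (difference -0.76). Of 45 epithelial genes listed, 20 were tested: 5 rose in Hs578T, and 2 rose and 2 fell in HCC70, against 2.55%, 7.80% and 1.99% of all genes. OCLN, a tight junction protein, rose from 1.90 ± 0.115 to 3.08 ± 0.0472 TPM in Hs578T and stood at 24.6 ± 0.890 and 27.8 ± 1.58 TPM in HCC70 (difference 0.32, adjusted p = 0.045, and up to 0.11 over the alternatives). It was the 1 epithelial gene of 20 with a called difference, against 7.11% of all genes. The 13 matrix genes that fell became 6 without non-BCSC replicate 2 of Hs578T.

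Among genes of at least 10 TPM in a group of each line that fell in Hs578T alone, those with the widest differences included CFI, RARRES3, NNMT and ZNF395. CFI, a protease of the complement system, measured 88.9, 90.7 and 85.0 TPM in Hs578T non-BCSCs and 41.4, 38.0 and 42.8 in its BCSCs, and stood at 201 ± 10.8 and 203 ± 2.56 TPM in HCC70 (difference -1.11 ± 0.08, adjusted p = 2.1e-05). RARRES3 (PLAAT4), a phospholipase induced by retinoids and interferon, fell by 0.77 and stood 0.32 higher in HCC70, with separate fractions but an adjusted p of 0.089. NNMT, which methylates nicotinamide, fell by 0.84, and ZNF395, a zinc finger protein that shares 35.0% of its exon bases with FBXO16, by 0.65. TGFB3, a TGF-β ligand, fell by 0.70 in Hs578T (difference -0.91, adjusted p = 0.003). NKD1 and RNF43, both feedback inhibitors of Wnt signaling, each fell by 0.78 (differences -0.85 and -0.84), NKD1 from 1.71 ± 0.0229 to 0.580 ± 0.0623 TPM. Another annotated gene covers 68.3% of the exon bases of RNF43 on the same strand. They were the 2 of 12 Wnt targets with a called difference, against 7.11% of all genes. Of the 12, 2 rose and 2 fell in Hs578T, and the median difference was 0.06. By edgeR and by DESeq2 the difference passed for 2 upward and 2 downward.

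Among the 66 genes that rose in Hs578T with a called difference, ALDH1A3 stood out by level. This retinaldehyde dehydrogenase measured 296, 291 and 280.0 TPM in Hs578T non-BCSCs and 701, 709 and 708 in BCSCs, and 84.6, 85.4 and 91.8 TPM and then 105, 99.9 and 90.6 in HCC70. The Hs578T fractions were far apart and the HCC70 fractions overlapped, with log2 fold changes of 1.29 ± 0.06 (adjusted p = 2.9e-07) and 0.17 ± 0.06 (adjusted p = 0.073) and a difference of 1.12 (95% interval 0.94 to 1.29, adjusted p = 2.1e-05). ALDH activity was a sorting criterion, and 32.1% of the exon bases of ALDH1A3 overlap an antisense gene. Of 23 ALDH and retinoid genes tested, the difference passed upward for ALDH1A3 alone and downward for 4, against 1.49% and 5.62% of all genes. SVIP, an inhibitor of degradation at the endoplasmic reticulum (ER), went from 9.81 ± 0.449 to 20.2 ± 2.35 TPM in Hs578T and stood at 44.5 ± 2.74 and 39.1 ± 2.77 TPM in HCC70 (difference 1.15, adjusted p = 0.00035). FGD4, an activator of CDC42, rose by 0.61 (difference 0.70). TRAF1, an adaptor of TNF receptors, rose from 8.63 ± 0.986 to 16.3 ± 1.28 TPM and IL8 (CXCL8), a neutrophil chemokine, from 159 ± 13.2 to 217 ± 7.03 TPM in Hs578T, while in HCC70 both were near 1 to 2 TPM (differences 0.73 and 0.47). TNFAIP3, which restrains NF-κB, differed in the other direction (-0.45, adjusted p = 0.018), so that the 15 NF-κB and cytokine genes tested split into 3 and 2. The same directions passed for 1.49% and 5.62% of all genes. The differences of TRAF1, IL8 and TNFAIP3 lost the call under some alternatives, with adjusted p up to 0.058, 0.12 and 0.062. SNORA53, MIR3651 and SNORA84 also rose in Hs578T, and the latter pair share their sequence and their reads. Over the alternatives the rises of SNORA53, MIR3651 and SNORA84 had adjusted p up to 0.091, 0.096 and 0.14. For the differences of these RNAs it reached 0.12, 0.083 and 0.11.

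The genes of the integrated stress and unfolded protein responses rose mainly in HCC70. Of 38 tested, 6 rose in Hs578T and 19 in HCC70, 5 rose in both, and the difference passed for 7, all with a larger effect in HCC70. For all genes the shares were 2.55%, 7.80% and 0.994%, and 5.62% for a called difference in that direction. The median log2 fold change was 0.06 in Hs578T and 0.21 in HCC70. DDIT3, the ER stress factor CHOP, measured 25.7, 25.9 and 25.5 TPM in Hs578T non-BCSCs and 20.5, 21.1 and 25.7 in its BCSCs, and 49.4, 46.5 and 53.3 TPM and then 73.9, 63.9 and 69.8 in HCC70. The Hs578T fractions overlapped and the HCC70 fractions did not (difference -0.66 ± 0.12, adjusted p = 0.0084). NUPR1, a stress-induced chromatin protein, rose by 0.40 in HCC70 (difference -0.46), HYOU1, an ER chaperone, by 0.40 (-0.43), and ALDH1L2, a mitochondrial folate enzyme, by 0.34 (-0.48). The differences of HYOU1 and ALDH1L2 lost the call under some alternatives, with adjusted p up to 0.079 and 0.096. So did the HCC70 rise of ALDH1L2, at up to 0.11. The 19 became 7 with each line fitted alone and 9 without BCSC replicate 1 of HCC70.

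**Figure D4:**
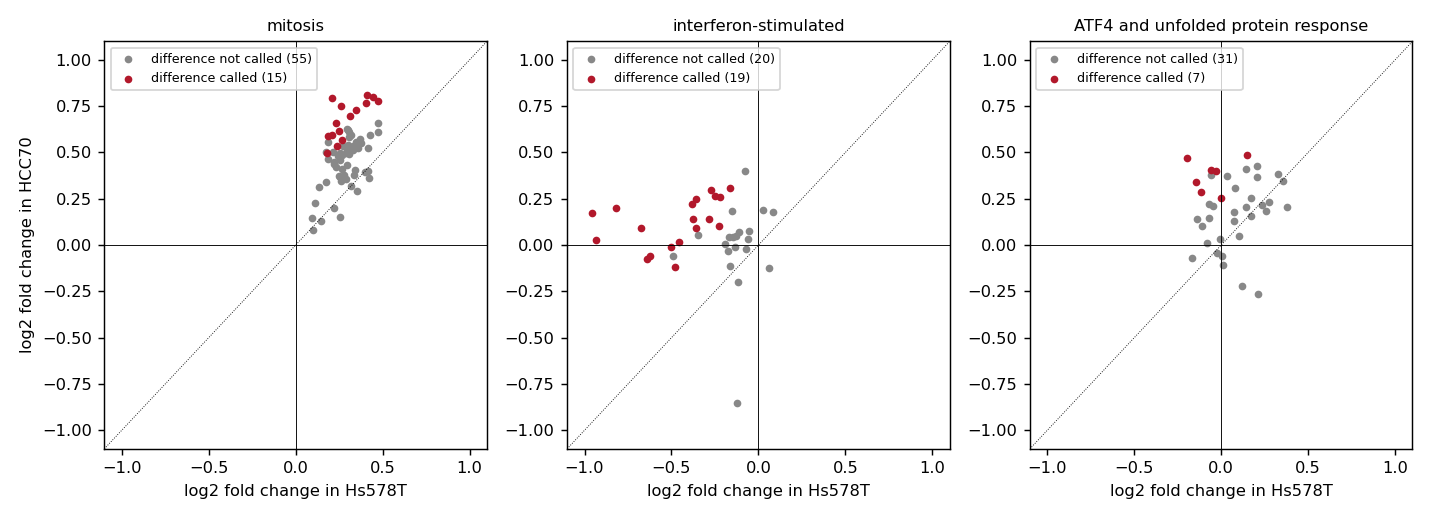
Log2 fold changes of BCSCs over non-BCSCs in Hs578T (x axis) and HCC70 (y axis) are shown for members of 3 lists, with red points where the difference between the lines passed, solid lines at 0 and a dotted line of equal effects. Most mitotic genes lie above the dotted line in the upper right quadrant, the interferon-stimulated genes with a called difference lie to the left of 0, and the stress response genes lie mostly above 0 in HCC70.

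Further genes with a rise in HCC70 alone were SIDT2, a lysosomal membrane protein (0.37, against -0.30 in Hs578T), ECM1, a matrix glycoprotein (0.38, against -0.29), NOTCH2, a Notch receptor (0.32, against -0.06), and CD68, a lysosomal glycoprotein (0.48, against -0.08), 81.6% of whose exon bases lie within another annotated gene. Over the alternatives the HCC70 rises of SIDT2 and ECM1 had adjusted p up to 0.073 and 0.11. The differences of NOTCH2 and CD68 had adjusted p up to 0.056 and 0.062. The small RNAs MIR5193, SNORD63 and MIR3198-2 rose by 0.46, 0.76 and 0.57. Adjusted p for MIR5193 reached 0.16 in HCC70 and 0.094 for the difference, and for SNORD63 0.1 and 0.25. MIR5193 lies wholly within exons of UBA7 and MIR3198-2 within those of CBX5, and SNORD63 had as few as 7 reads in a library. Of the 64 genes that fell in HCC70 alone, ANKRD30BL, an ankyrin-repeat gene with noncoding transcripts, went from 74.6, 58.9 and 40.7 TPM to 32.1, 23.7 and 19.5, while in Hs578T its BCSC libraries spread from 134 to 229.5 TPM and overlapped the others. ZNF524, a zinc finger protein, fell from 19.5, 17.5 and 18.5 TPM to 9.39, 11.0 and 11.1, and FAM195A (MCRIP2) from 30.4 ± 6.81 to 15.0 ± 2.27. SNORA71A, SNORA22 and SNORA23 fell by 1.05, 0.79 and 0.61 in HCC70, but all exon bases of SNORA71A lie within SNHG17 on the same strand. Over the alternatives, adjusted p reached 0.075 in HCC70 and 0.12 for the difference of SNORA71A. For SNORA23 these were 0.061 and 0.053. The differences of ANKRD30BL and FAM195A had adjusted p up to 0.074 and 0.078. Over all 254 names of small nucleolar and Cajal body RNAs, a grouping made after the values were seen, the difference passed for 19 with a higher and 3 with a lower effect in Hs578T, against 1.49% and 5.62% of all genes. Their lowest library had a median of only 16 reads. FASN and MVD, enzymes of fatty acid and mevalonate synthesis, fell in HCC70 by 0.53 and 0.48, and stood 0.25 and 0.15 higher in Hs578T, short of the threshold. With SQLE they were the 3 of 31 lipid synthesis genes with a called difference, against 7.11% of all genes, and the differences of FASN and MVD had adjusted p up to 0.074 and 0.11 over the alternatives. ID1, a target of BMP signaling, fell from 495 ± 45.4 to 319 ± 37.0 TPM in HCC70 (difference 0.79, adjusted p = 0.046). Its calls were lost under some alternatives, with adjusted p up to 0.087 in HCC70 and 0.098 for the difference.

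In other lists the difference passed for 2 of 76 subunits of oxidative phosphorylation, 2 of 77 cytosolic ribosomal proteins, 2 of 33 ribosome biogenesis and MYC targets, 2 of 24 NRF2 targets, 2 of 24 p53 targets, 2 of 17 TGF-β targets, and 1 of 12 Notch genes, against 7.11% of all genes tested. It passed for 0 of 15 YAP and TEAD targets by limma (6 at an unadjusted p under 0.05, 1 by edgeR, 4 by DESeq2) and for 0 of 13 stemness factors (3, 1 and 4). Genes with a called difference were more often far apart in level. The non-BCSC levels of the 2 lines were more than 4-fold apart for 18.7% of the 830, for 31.4% of the 51 that fell in Hs578T and rose in HCC70, for 11.2% of the 116 that rose in both, and for 9.11% of all genes tested, given as a description. A further 1656 genes reached the minimum in Hs578T only and 1550 in HCC70 only, and their effects were not compared.

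**Figure D5:**
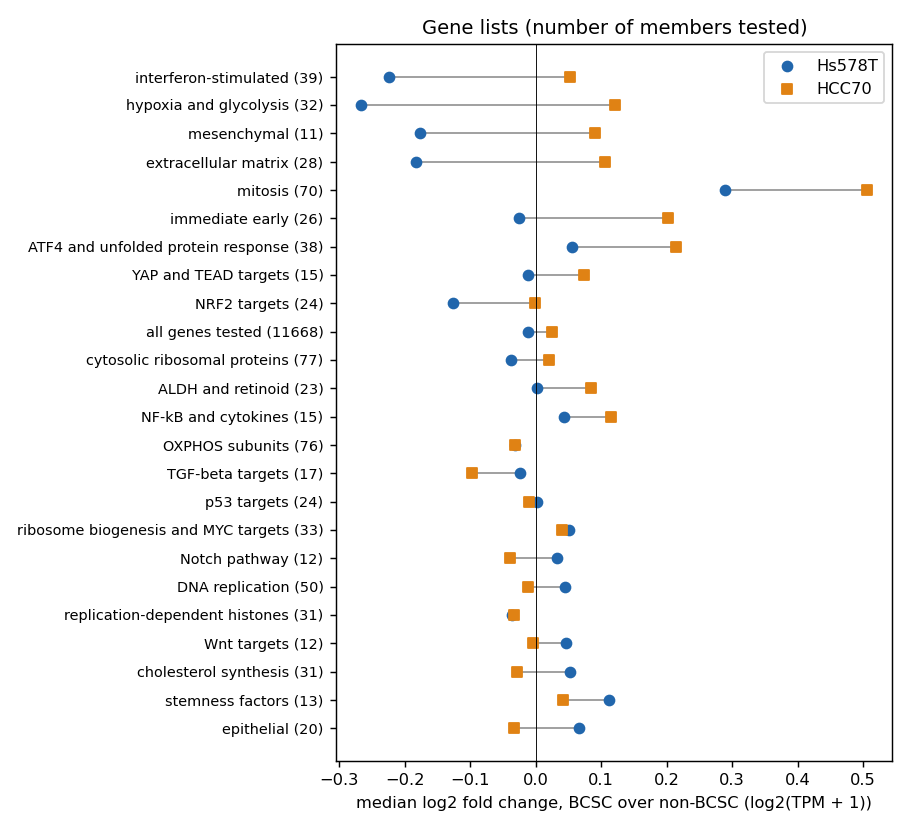
The median log2 fold change of BCSCs over non-BCSCs is drawn for each gene list with at least 10 members tested and for all genes tested, in Hs578T (circles) and HCC70 (squares), ordered by the median difference. The interferon-stimulated, hypoxia, mesenchymal and matrix lists span 0, from -0.27 to -0.18 in Hs578T and from 0.05 to 0.12 in HCC70, and mitosis lies above 0 in both.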

How the data were processed

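The authors sequenced poly-A RNA from stranded libraries. Per the labels, the submitters' processing notes name HISAT2 2.0.5, featureCounts 1.5.0-p3 and GRCh38. The authors deposited 1 table per line in TPM, with columns summing to 1000000, and 0 sample columns were left unused. The authors also deposited CPM and a signal scaled by 1 factor per library for the other 12 samples, not used here. Tables were joined on the gene name, and 1442 older names were updated. log2(TPM + 1) was fitted with limma 3.58.1 (R 4.3.3), 4 group means and a trend in the prior variance, two-sided, with Benjamini-Hochberg adjustment over 11668 genes (mean of at least 1 TPM in each line, adjusted p under 0.05). The study's methods name DESeq2, which needs counts. The difference is the Hs578T effect minus the HCC70 effect. A pseudocount of 1 understates changes of low genes. On simulated data for the difference, run on 11618 genes, 85 of 100 genes that differed and 0 of 100 changed alike were called, with 4.49% false calls. The changes were planted only in genes above a minimum of reads, and no shift in scaling was planted. Several differences named above are smaller than any planted. These rates therefore do not carry over to genes of few reads, to smaller differences or to shifts in scaling.

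Whole reads were recovered from ratios of TPM within genes, and used with edgeR 4.0.16 and DESeq2 1.42.0 as alternatives. They came out whole for all 19283 and 18248 listed genes. The other alternatives were a pseudocount of 0.1, a minimum of 10 TPM or none, median-of-ratios and quantile scaling, separate fits, variance weights, a replicate block, each library left out, and, added after the data were seen, rescaling without RMRP and RPPH1.

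The members and gene lists were chosen with earlier results of these data known. Named genes are sorting markers, genes the study took forward, up to 6 per class with a mean of at least 10 TPM in a group of each line (ranked by the smaller effect where both lines passed and by the difference otherwise), and up to 4 per list, called differences first. Any other gene is marked as picked with its values in view, apart from markers of the lines and of other cell types. A gene that the rule names is not reported here. Exon overlaps come from GENCODE 44, which may differ from the authors' annotation, and promoters from RefSeq on GRCh38.p14, where 8981 of 11667 gene names matched. Python 3.11.15, pandas 2.3.3 and matplotlib 3.10.9 were used.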

Additional observations from a re-analysis of the deposited data

Results flagged for a closer look

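The effect of the sort differed between the lines for 830 genes by a test of the difference itself, and the genes below are those among them that were named, each with the Hs578T log2 fold change minus the HCC70 one. No group has the 4 samples needed to look for a sample that stands apart. Their causes were not tested, and line and batch cannot be told apart.

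Among mitotic genes the values were -0.31 for CCNB1, -0.35 for KIF20A, -0.59 for TROAP, -0.49 for KIF2C, -0.43 for CDCA8, -0.41 for MKI67 and -0.40 for PLK1. SEMA3C and LGALS3, which fell in both lines, had 0.31 and -0.30. Among hypoxia genes they were -1.69 for CA9, -1.11 for NDRG1, -0.95 for ANKRD37, -0.84 for DDIT4, -0.80 for SLC2A1, -0.70 for PDK1 and -0.36 for LDHA. Other opposite calls were -0.88 for RGS2, -1.01 for APOL1 and 0.59 for ST6GAL1. Among heat shock and immediate early genes FOSB had -0.96, HSPA1B -0.72, HSPA1A -0.64 and ATF3 -0.50.

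Among genes with a rise in Hs578T the values were 1.15 for SVIP, 1.12 for ALDH1A3, 0.92 for SNORA53, 0.88 for MIR3651, 0.82 for SNORA84, 0.70 for FGD4, 0.73 for TRAF1, 0.47 for IL8 and 0.32 for OCLN. Among interferon-stimulated genes IFITM1 had -1.13, IFITM2 -1.02, XAF1 -0.96 and BST2 -0.77. CFI had -1.11, RARRES3 -1.09, NNMT -0.96 and ZNF395 -0.82. Matrix and mesenchymal genes gave -0.78 for COL5A2, -0.72 for LAMA4, -0.68 for P4HA2, -0.66 for COL1A1, -0.76 for S100A4 and -0.72 for SNAI2, and signaling genes -0.91 for TGFB3, -0.85 for NKD1, -0.84 for RNF43 and -0.45 for TNFAIP3.

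Among genes with a rise in HCC70 the values were -0.75 for MIR5193, -0.71 for SNORD63, -0.68 for SIDT2, -0.67 for ECM1, -0.66 for DDIT3, -0.66 for MIR3198-2, -0.48 for ALDH1L2, -0.46 for NUPR1, -0.43 for HYOU1, -0.38 for NOTCH2 and -0.56 for CD68. Among those with a fall in HCC70 they were 1.42 for ANKRD30BL, 1.20 for SNORA71A, 1.11 for FAM195A, 1.05 for SNORA22, 1.02 for ZNF524, 0.90 for SNORA23, 0.78 for FASN, 0.64 for MVD and 0.79 for ID1.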

How the results depend on the processing

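The counts moved by over 1.5 times under several alternatives. A minimum of 10 TPM left 35 opposite calls and 140 calls in Hs578T with a difference, no minimum gave 477 of the latter, and both change which genes are tested. With each line fitted alone there were 81 calls in the same direction, 10 opposite and 116 in HCC70 with a difference. The last were 197 with a variance weight per line and 212 rescaled without RMRP and RPPH1. DESeq2 gave 1391 differences, 89 opposite calls, 398 in Hs578T and 593 in HCC70 with a difference. Leaving out a library gave 291 (without Hs578T non-BCSC replicate 2) to 1225 differences (without Hs578T BCSC replicate 3), 57 to 119 calls in the same direction, 12 to 65 opposite calls, 108 to 244 in Hs578T and 63 to 515 in HCC70 with a difference, with fewer samples in each fit. The cause of the other shifts was not tested.

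Replicate numbers are shared between fractions. The deviations of same-numbered libraries correlated at 0.0542, -0.0878 and -0.0596 for Hs578T replicates, and at 0.0079, 0.1691 and -0.1252 for those of HCC70. For libraries of unlike number the values ran from -0.1553 to 0.1455. With 3 libraries a group, these values cannot decide whether libraries were paired. The replicate block gave 302 differences, 75 calls in the same direction, 22 opposite, 130 in Hs578T and 94 in HCC70 with a difference. Of 70 named differences that had passed, 29 lost the call under at least 1 alternative, as did 12 of 54 calls in Hs578T and 25 of 52 in HCC70. No result of a named gene that had passed turned its direction under any alternative. At 3 libraries a group, genes of few reads are the least certain.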
